A study of Mus musculus with 3 samples.

Results

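The genes described here are 9 regulators of blood stem and progenitor cells: Kit, Flt3, Cd34, Myb, Meis1, Mecom, Hlf, Erg and Hhex. They were chosen by name, as a list, with earlier results of these data known, and are 9 of the 21851 protein-coding genes of the mouse annotation. Their chromatin was measured by DNase-seq, in which the nuclease DNase I cuts accessible DNA and leaves peaks of cut sites over open promoters and other regulatory elements. The 3 libraries, numbered as biological replicates 1, 2 and 4, form 1 group: primary monocytes of virgin female B6CASTF1/J mice, adults at 2 months, untreated as far as the labels say. B6CASTF1/J is the first-generation cross of C57BL/6J and CAST/EiJ, so each cell carries 1 genome of each strain. All 3 libraries bear the same donor identifier, and nothing in the labels says that they came from separate animals, so the errors given are the spread of these libraries alone and may be technical. There is no second condition, and each value is therefore a description, set beside the same value for all protein-coding genes.

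Blood stem cells are held in their state by surface receptors that read growth factors of the niche and by a network of transcription factors that bind each other's enhancers. Monocytes arise from these cells through myeloid progenitors and are known to switch most of this program off. Enhancers of such genes are usually active in few cell types, whereas promoters rich in CpG dinucleotides can be accessible in cells that do not use the gene. The question put to the data was therefore which of these promoters are open in monocytes while the sites around them are few.

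The lists held 54046, 42657 and 48980 peaks in replicates 1, 2 and 4, with median heights of 0.932, 0.975 and 1.14. The height is the authors' own signal for each peak; its scale is not stated, so heights were compared mainly by their percentile within a library. The files list peaks and not reads, and the sequencing depth behind them is unknown. Replicate 2 had the fewest peaks and on average 2.05 distal peaks per gene, beside 2.69 in replicate 1 and 2.47 in replicate 4. The labelled cell type was checked against markers. Of 12 monocyte markers, 7 carried a promoter peak throughout (Cx3cr1, Csf1r and Cd14 for example), and Ccr2 was the 1 marker that had none. The 5 markers of myeloid progenitors, the granule genes Mpo, Elane, Prtn3 and Ctsg and the membrane gene Ms4a3, were without promoter peaks throughout. The same held for all 7 mast cell and basophil markers and all 6 T cell markers. All 3 libraries had a promoter peak at 2 of 6 neutrophil, 2 of 7 dendritic, 1 of 6 megakaryocyte and platelet, 1 of 5 endothelial, 0 of 6 B cell and 0 of 5 natural killer cell markers. The part of other cell types in the peaks described below was not tested.

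A promoter was called open when a peak overlapped the 1 kb on either side of any protein-coding transcription start site (TSS) of the gene in all 3 libraries. By this rule 5 of the 9 regulators were open: Kit, Flt3, Meis1, Hlf and Hhex. Of all protein-coding genes, 50.5% were open, so the count for the regulators lies near the background. Cd34, Myb and Erg had a promoter peak in 2, 2 and 1 of the libraries, and Mecom had none in any library, as did 44.1% of all genes. A distal peak lies outside every protein-coding promoter window and within 50 kb of the gene's most upstream protein-coding TSS. The regulators averaged 2.81 ± 0.463 distal peaks per gene (SD, n = 3 libraries), beside 2.40 ± 0.326 for all protein-coding genes. With the authors' stricter list the order was reversed, at 1.52 for the regulators and 1.59 for all genes. Kit, Meis1 and Hlf were open with few distal peaks, that is with a mean no higher than 2.33, the median of all open genes. These are 3 of 9 genes, beside 25.7% of all protein-coding genes, and 3 of the 5 that were open, beside 50.9% of all 11029 open genes. When each distal peak was counted only for the gene with the nearest TSS, only Kit met the rule. The regulators then averaged 2.67 distal peaks per gene, beside 1.02 for all protein-coding genes. This rule takes few peaks from genes without neighbours. Except for Flt3, none of the 9 has another coding TSS within 50 kb, as is so for 23.1% of open genes. The part of gene spacing in this gap was not tested. The shares of 3 in 9 and 3 in 5 are near the background, so neither sets the group apart, and the values below describe its members one by one.

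**Figure D1:**
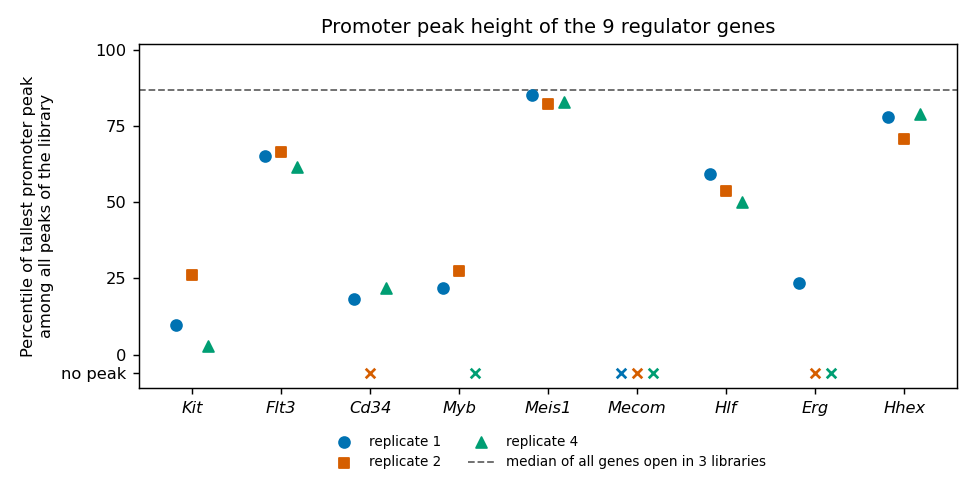
Percentile of the tallest promoter peak of each regulator gene among all peaks of the same library (vertical axis), with 1 symbol per library and a cross where the library had no promoter peak. All points lie below the dashed line, the median of all genes open in 3 libraries (87.0), with Meis1 nearest to it and Kit lowest of the 5 open genes.

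The open promoters ranged from among the lowest in the genome to near the middle. In each library all 5 lay below the median of the tallest promoter peaks of open genes. Their percentiles within that set ran from 0.358 to 41.0 in replicate 1, from 3.54 to 43.1 in replicate 2 and from 0.0635 to 39.2 in replicate 4. Kit stood at the bottom and Meis1 at the top in every library.

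The promoters of Meis1, Hlf and Hhex are shown first, with the tallest distal sites of Meis1 and Hlf, because Meis1 and Hlf pair an open promoter with sparse surroundings and Hhex does not. The sequences are the reference of C57BL/6J (GRCm38.p6, the assembly of mm10), read 5′ to 3′ on the strand of the gene and without exonic bases, and the CAST/EiJ allele may differ. Each is the longest such stretch covered by peaks of all 3 libraries, and capitals mark bases inside footprints, short stretches protected from cutting, of all 3 libraries.
Meis1 promoter, chr11:19018986-19019120, minus strand: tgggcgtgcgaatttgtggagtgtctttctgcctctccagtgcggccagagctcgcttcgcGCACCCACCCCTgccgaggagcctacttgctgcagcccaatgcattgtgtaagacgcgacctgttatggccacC
Hlf promoter, chr11:90390896-90391020, minus strand: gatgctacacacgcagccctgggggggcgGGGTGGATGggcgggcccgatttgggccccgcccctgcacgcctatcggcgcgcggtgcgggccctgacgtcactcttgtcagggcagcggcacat
Hhex promoter, chr19:37434657-37434760, plus strand: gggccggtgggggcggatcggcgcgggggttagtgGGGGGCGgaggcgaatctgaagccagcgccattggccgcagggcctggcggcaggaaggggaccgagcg
Meis1 distal site, chr11:19020401-19020600, minus strand: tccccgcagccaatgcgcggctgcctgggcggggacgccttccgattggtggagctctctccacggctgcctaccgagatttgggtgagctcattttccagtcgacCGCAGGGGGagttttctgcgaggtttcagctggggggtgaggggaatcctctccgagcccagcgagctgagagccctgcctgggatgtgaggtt
Hlf distal site, chr11:90418001-90418220, minus strand: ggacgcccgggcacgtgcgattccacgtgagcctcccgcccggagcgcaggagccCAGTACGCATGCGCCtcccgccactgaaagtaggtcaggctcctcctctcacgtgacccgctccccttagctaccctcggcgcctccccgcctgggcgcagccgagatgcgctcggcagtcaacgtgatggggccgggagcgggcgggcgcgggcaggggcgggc

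Among the receptors and surface proteins, Kit (chr5:75574916-75656722, plus strand) encodes the receptor tyrosine kinase for stem cell factor, which stem cells, progenitors and mast cells carry. Its promoter held 1 peak over the first exon in each library, with heights of 0.421, 0.630 and 0.371 in replicates 1, 2 and 4. These heights correspond to percentiles of 9.66, 26.0 and 2.81 among all peaks of the library. The peak was therefore present in all 3 libraries but low in each, and it entered the authors' shorter, stricter list in replicate 2 alone. The lowest false discovery rate (FDR) of cutting that the authors listed in the window was 0.00779, 0.000295 and 0.0150. The promoters of the 7 mast cell and basophil markers had no peak in any library, as did those of 44.1% of all protein-coding genes. A low peak in many cells and a tall peak in few cells cannot be told apart in bulk chromatin. Around Kit there was 1 distal peak, 29.7 kb into the gene in an intron, and it occurred in replicate 1 only. No sequence of the Kit promoter is given, since the part shared by all 3 libraries lies in the first exon.

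Flt3 (chr5:147330741-147400489, minus strand) encodes the receptor of the Flt3 ligand, which lymphoid-primed progenitors and dendritic cells need. Within the group it stood at the other end from Kit in distal peaks. Of the 7 dendritic markers, 2 (Zbtb46 and Batf3) had promoter peaks in all 3 libraries, beside 50.5% of all protein-coding genes. The other 5 (Xcr1, Siglech, Clec9a, Ccr7 and Ccr9) had none in any library. The part of dendritic cells in the Flt3 peaks was not tested. The Flt3 promoter peak had heights of 1.37, 1.48 and 1.55, an average of 1.47 ± 0.0902 (SD, n = 3), at percentiles between 61.5 and 66.5 of all peaks. It had 5, 5 and 6 distal peaks in replicates 1, 2 and 4, the highest mean of the 9 genes (5.33 ± 0.577), at the 81.2 percentile of open genes. Of its distal regions, 3 recurred in all libraries. The tallest lay 37.3 kb downstream of the TSS over an exon of Flt3, with a mean height of 2.09 ± 0.474, and another lay in an intron 11.2 kb downstream, with 1.53 ± 0.328. The region 18.0 kb upstream (1.13 ± 0.177) covers the annotated start of the noncoding RNA D5Ertd605e and lies nearer to the TSS of Pan3 than to that of Flt3.

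Cd34 (chr1:194938819-194961279, plus strand) encodes a sialomucin on stem cells and endothelium. Its promoter had a peak of height 0.511 in replicate 1 and 0.631 in replicate 4, and none in replicate 2. In replicate 2 the window still held cutting at an FDR of 0.0492, just under the 0.05 at which the authors' list ends. The tallest distal site of all 9 genes lay 37.5 kb downstream of this weak promoter, with heights of 3.65, 2.92 and 4.26 and a mean of 3.61 ± 0.671. That site sits at the annotated start of the noncoding transcript A330023F24Rik. A lower region at 38.0 kb (1.04 ± 0.135) sits at the start of the antisense RNA Gm16897, and the third shared region, at 23.6 kb, had a height of 1.21 ± 0.268. Cd34 thus had 5, 4 and 4 distal peaks around a promoter that was not called open. Those at 37.5 and 38.0 kb, and 1 at 38.4 kb in replicate 1 only, lie close together, so the counts are not all of separate places.

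**Figure D2:**
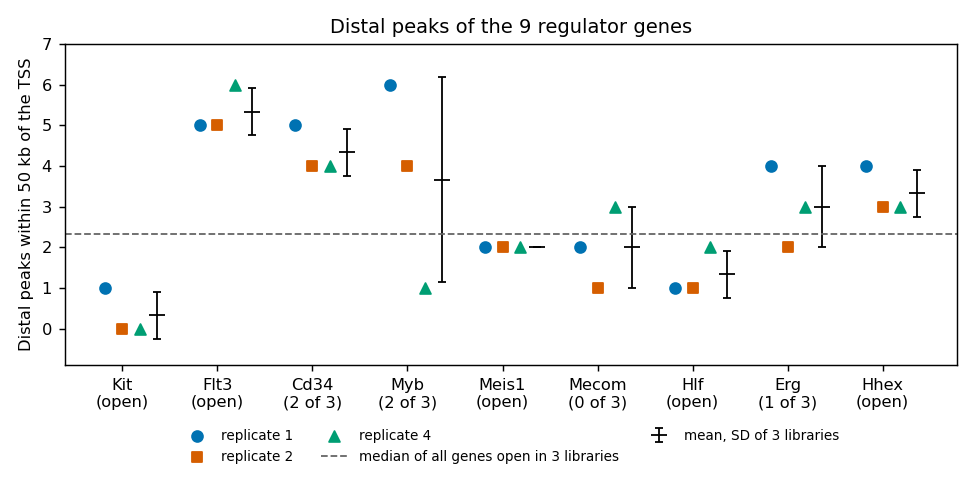
Number of distal peaks within 50 kb of the most upstream coding TSS (vertical axis) for each regulator gene, 1 symbol per library, with the mean and SD of the 3 libraries in black and the number of libraries with a promoter peak under each name. Kit has 1, 0 and 0 peaks and Flt3 has 5, 5 and 6, on either side of the dashed median of all open genes (2.33).

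Among the transcription factors, Meis1 (chr11:18879817-19018985, minus strand) encodes a homeodomain partner of HOX proteins that stem cells require. Its promoter was the tallest of the group, with heights of 3.18, 2.77 and 3.76 and a mean of 3.24 ± 0.500. Those heights reach the percentiles 85.3, 82.3 and 82.8 of all peaks, yet only 41.0, 43.1 and 39.2 among open promoters. All 4 of its coding TSSs lie within 0.271 kb and shared this peak, whose lowest FDR was 1.63e-11, 1.94e-12 and 3.98e-13. Each library had exactly 2 distal peaks, at the same 2 places. The first, printed above, lies 1.5 kb upstream, just outside the promoter window, with heights of 2.76, 2.26 and 2.30 (2.44 ± 0.278), below the promoter in each library. The second lies in an intron 48.9 kb downstream and was among the lowest peaks of each library (0.380 ± 0.100, percentiles of 12.7, 1.57 and 5.19).

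Hlf (chr11:90336536-90390895, minus strand) encodes a basic leucine zipper factor of the PAR family, found in stem cells and in liver. Its single promoter had a peak of height 1.16, 1.06 and 1.14, a mean of 1.12 ± 0.0564 with the narrowest SD of the open promoters. It had 1, 1 and 2 distal peaks. The 1 shared region, printed above, lies 27.2 kb upstream in intergenic DNA, and had heights of 1.24, 1.12 and 1.18 (1.18 ± 0.0598), slightly above the promoter in each library. The other peak, in an exon 3.07 kb downstream, had a height of 0.408 and was in replicate 4 only.

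Hhex (chr19:37434810-37440731, plus strand) encodes a homeodomain factor of early blood and endothelial development. Its main promoter peak had heights of 2.16, 1.71 and 3.06 and covers the DNA just upstream of the first TSS. Lower peaks in all 3 libraries lay 0.650 kb downstream (0.852 ± 0.179) and over the second TSS at 1.93 kb (0.922 ± 0.123), so both TSSs were open. Hhex had 4, 3 and 3 distal peaks, above the median of open genes. The tallest lies 48.0 kb downstream in intergenic DNA with a height of 2.43 ± 0.383, slightly above the promoter mean of 2.31 ± 0.685 but within its spread. The other shared region lies 15.0 kb upstream inside an intron of the neighbouring gene Kif11 (1.11 ± 0.330).

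Myb (chr10:21124935-21160984, minus strand) encodes the factor that progenitors of definitive blood formation depend on. Its promoter windows held a peak of height 0.544 in replicate 1, in an intron 1.03 kb downstream of the first TSS. In replicate 2 a lower-ranked peak of 0.559 lay at that intronic place, and the tallest, of 0.647, lay 0.056 kb upstream of the TSS. The peak beside the TSS was thus in replicate 2 only. In replicate 4 the windows had neither a peak nor any listed FDR. Replicate 4 was also lowest in distal peaks, with 6, 4 and 1 in replicates 1, 2 and 4, the largest spread of the group (3.67 ± 2.52). Its 1 shared region, 15.9 kb downstream over an exon of Myb and the start of the antisense RNA Gm26577, averaged 0.753 ± 0.313 and entered the stricter list in 0 libraries. Erg (chr16:95359169-95586593, minus strand) encodes an ETS factor of stem cells and endothelium. It had 1 promoter peak of height 0.561, in replicate 1, located 0.832 kb into the gene. The other 5 of its 6 coding TSSs, spread over 127 kb, had no peak in any library. The locus nevertheless kept 2 shared distal regions upstream, at 18.9 kb (1.11 ± 0.103) and 29.2 kb (0.882 ± 0.0569), with 4, 2 and 3 distal peaks in all.

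Mecom (chr3:29951296-30548008, minus strand) encodes zinc finger proteins, EVI1 among them, that maintain stem cells. None of its 6 coding TSSs, over 512 kb, had a peak in any library, and no cutting with an FDR under 0.05 was listed within 1 kb of any of them in any library. No FDR was listed near any coding TSS in any library for 42.6% of all protein-coding genes. Its 2, 1 and 3 distal peaks were low (heights from 0.443 to 0.545), none recurred in all 3 libraries, and 4 of its 5 regions lie between 1.26 and 2.63 kb inside the first coding TSS. A promoter window of 2000 bp takes in 2 of these regions, those at 1.26 and 1.94 kb, and Mecom was then counted as open in all 3 libraries. Its call as not open therefore rests on the width of the window.

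**Figure D3:**
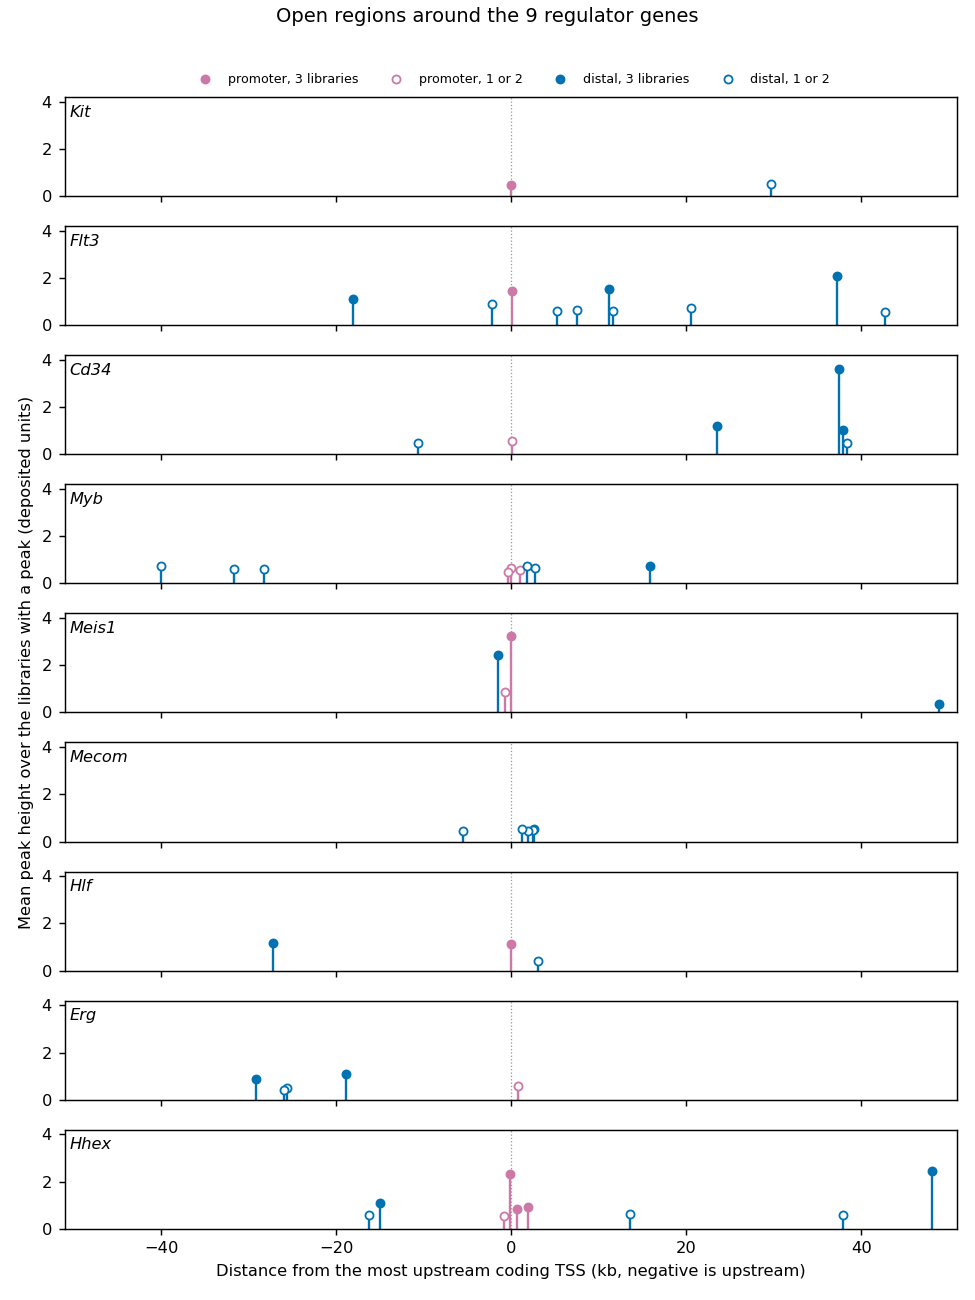
Merged peaks within 51 kb of the most upstream coding TSS of each gene, placed by distance in kb (horizontal axis, negative is upstream) and by mean height over the libraries with a peak (vertical axis, the authors' units). Filled circles mark regions found in all 3 libraries; Kit and Mecom have no filled distal circle, and the tallest distal one is that of Cd34 at 37.5 kb.

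Over the 9 loci the peaks of the 3 libraries merged into 39 distal regions. Of these, 14 occurred in all 3 libraries, 8 in 2 and 17 in 1. By position, 20 lay in introns, 6 in exons and 13 between genes. For 37 of the 39 the nearest coding TSS was that of the regulator itself. That count was largely set in advance, since almost no other coding TSS lies within 50 kb of these genes. Of the 14 shared regions, 8 had a height at or above the library's median peak in every library, and 11 were in the stricter list of all 3 libraries. Kit and Mecom had no shared distal region, Myb and Hlf had 1 each, Meis1, Erg and Hhex 2 each, and Flt3 and Cd34 3 each. The 4 shared regions of Flt3, Cd34 and Myb at noncoding starts make up all those within 1 kb of any annotated transcript start. These region counts are given without the same shares over all distal regions, so they describe these loci only.

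The number of other genes nearby was compared as well. Except for Flt3, which has 1 neighbour, none of the 9 genes has another protein-coding gene with a TSS within 50 kb. Of all open genes, 2545 are isolated in this way, with a median of 2 distal peaks, beside 2.67 for the other 8484. Within the isolated open genes the mean distal count of Kit ranked at the 19.0 percentile, that of Hlf at 40.7, that of Meis1 at 52.5 and that of Hhex at 70.0. Among genes with equally empty surroundings, Meis1 was thus in the middle and Kit remained low. When the window reached 100 kb, Kit still had 1, 0 and 0 distal peaks, Hlf 2, 1 and 2, and Meis1 3, 3 and 4, whereas Hhex had 12, 7 and 11.

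Promoter sequence composition did not follow the order of heights. The observed over expected ratio of CpG within 500 bp of the first coding TSS was 0.921 in Hhex, 0.877 in Hlf, 0.849 in Myb, 0.719 in Flt3, 0.681 in Meis1, 0.675 in Kit, 0.646 in Mecom, 0.485 in Cd34 and 0.448 in Erg. The medians were 0.571 for all genes and 0.744 for open genes. Meis1, the tallest promoter, had a ratio close to that of Kit, the lowest of the open ones, and Myb had a high ratio with a promoter that was not open in all libraries. Cd34 and Erg had the lowest ratios, and neither was open in all libraries.

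Footprints were called in every open promoter of the group. The promoter peaks of the 5 genes held 9.43, 8.58 and 11.3 footprints per kb in replicates 1, 2 and 4, beside 12.8, 12.8 and 13.0 per kb for all open genes. The regulators lay lower in each library. Heights of these promoters are also lower than those of most open genes, and the part of height in the footprint density was not tested. Between 0.988% and 2.50% of all open genes had no promoter footprint, while each of the 5 regulators had at least 1 in each library.

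Promoters were searched on both strands for 18 short motifs in the 300 bp centred on the tallest promoter peak. The ETS motif CCGGAAGT, which shares its GGAAGT with the PU.1 motif GAGGAAGT, matched in Meis1 alone, 7 bp downstream of the TSS, and overlapped footprints of all 3 libraries; 10.1% of open genes have a match in their window. The KLF and SP motif GGGCGG matched in Kit, Hlf and Hhex, beside 70.6% of open genes. In Hlf and Hhex copies of it touch the capitals of the promoters printed above. The cyclic AMP response element TGACGTCA matched in Hlf 27 bp upstream of the TSS, beside 4.32% of open genes, and a footprint of 1 library overlapped it. RUNX (TGTGGT) matched in Flt3 and Meis1, NFY (CCAAT) in Meis1 and Hhex, CTCF (CCNCNAGGG) in Hlf and Hhex, and the MYC class E-box (CACGTG) in Flt3. The shares of open genes with these matches were 11.2%, 38.5%, 10.8% and 11.2%. No match was found in the 5 windows for PU.1, for GATA with the letters AGATAA or for CEBP with TTGCNNAA. The same held for AP-1, whose motif was TGANTCA, and for the TAL1 class E-box CAGCTG. It held for NRF1 (GCGCATGC), YY1 (AAGATGGC) and IRF (GAAANNGAA). It also held for MYB (with AACGG as its motif), for MEIS (with TGACAG) and for the PBX and HOX motif TGATTNAT. The shares of open genes with a match for these absent motifs ran from 0.698% for PBX and HOX to 26.0% for MYB. They were 3.77% for PU.1, 3.09% for GATA and 7.18% for CEBP. With 5 windows, the absences do not set these promoters apart from other open genes. A match is a string of letters and not a measured binding site.

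The 14 shared distal regions were searched in the same way in 200 bp around their centres. A longer CTCF consensus, with a core of 12 letters and at most 1 mismatch, was added after the footprints had been seen. It matched in 5 of the 14 regions, beside 30.5% of all 20741 distal regions shared by the 3 libraries, so its share was near the background. All 5 matches overlapped footprints of all 3 libraries, as did those of 76.8% of the shared distal regions with a match. CTCF is the zinc finger protein that anchors chromatin loops. The 5 sites are given as 60 bp on the strand of the motif, with the matching core in capitals.
Flt3, 18.0 kb upstream, chr5:147418467-147418526, plus strand: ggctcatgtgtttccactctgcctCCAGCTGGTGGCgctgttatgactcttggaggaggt
Cd34, 23.6 kb downstream, chr1:194962350-194962409, minus strand: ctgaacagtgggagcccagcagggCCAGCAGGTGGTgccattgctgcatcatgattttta
Erg, 18.9 kb upstream, chr16:95605453-95605512, plus strand: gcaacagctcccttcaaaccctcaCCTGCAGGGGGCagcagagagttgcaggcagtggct
Erg, 29.2 kb upstream, chr16:95615730-95615789, plus strand: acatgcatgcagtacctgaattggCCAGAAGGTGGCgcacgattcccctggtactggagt
Hhex, 15.0 kb upstream, chr19:37419797-37419856, plus strand: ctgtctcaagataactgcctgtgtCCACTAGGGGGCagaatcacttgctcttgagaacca

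Both shared distal regions of Erg were of this kind, while the core of the Hhex site matched with 0 mismatches. The shared distal site of Hlf held none, but its footprinted bases CAGTACGCATGCGCC include the NRF1 motif on the opposite strand, a match that 0.853% of all shared distal regions have. NRF1 is a factor of CpG-rich promoters. The same site holds 3 MYC class E-boxes, beside 5.17% of regions with at least 1. Of the motifs of blood factors, PU.1 matched in 3 of the 14 regions (37.3 kb downstream of Flt3's TSS, 48.9 kb downstream of that of Meis1 and 15.0 kb upstream of that of Hhex) and 8.50% of all shared distal regions. CEBP matched in 4 (2 at Flt3, 1 at Erg and 1 at Hhex) and 11.7%, GATA in 2 and 5.37%, and RUNX in 1 and 20.4%. The TAL1 class E-box matched in 3 and 15.5%, MEIS in 1 and 16.2%, and AP-1 in 1 and 10.5%. MYB, IRF, ETS and the PBX and HOX motif matched in 0, beside 10.4%, 6.89%, 0.853% and 1.79%. With 14 regions these are counts for description only.

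The other genes of the stem cell program were taken from lists chosen by function, with earlier results of these data known. The counts of open genes in these lists stand beside 50.5% of all protein-coding genes. The partner factors Fli1, Gata2, Lmo2, Lyl1, Runx1 and Tal1, which bind together with ERG in stem cells, were open in 5 of 6 cases. Their median was 5.5 distal peaks, beside 1.67 for all protein-coding genes. For the open ones alone it was 8, beside 2.33 for all open genes. Fli1 and Lyl1 had the most, 11.7 ± 1.53 and 11.7 ± 0.577 (SD, n = 3), and Lmo2 and Tal1 the fewest of the open ones, 3 ± 1.73 and 3 ± 1.00. Gata2 had no promoter peak in any library and 0.333 ± 0.577 distal peaks. None of these 6 partners was open with few distal peaks, as 25.7% of all genes were, and with so few genes the count sets them apart from neither the regulators nor the background. The 15 other stem cell factors were closer to the regulators, with 10 open, 4 of them with few distal peaks. Their median was 2.67 distal peaks, beside 3 for the 9 regulators. Gfi1b and Etv6 had the most distal peaks (7 ± 1.00 and 6.33 ± 1.53) and Mycn had 0 in every library. Hoxa9, Nkx2-3, Prdm16 and Sox17 had no promoter peak in any library. Of 12 further surface proteins of stem cells 3 were open, Cd93, Cxcr4 and Cd48, with 9.33 ± 3.79, 8.33 ± 0.577 and 3 ± 1.00 distal peaks.

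**Figure D4:**
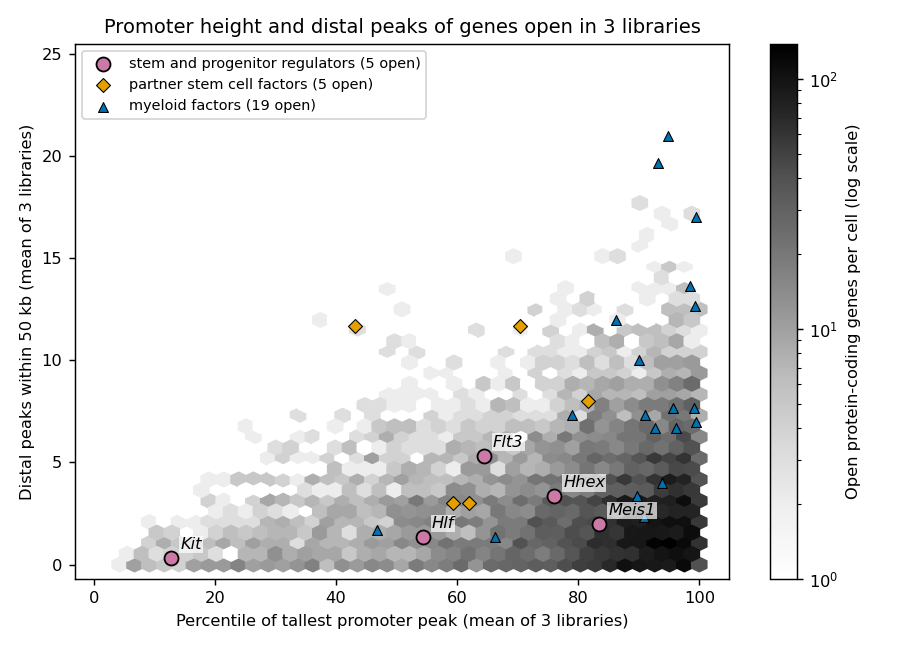
Mean percentile of the tallest promoter peak (horizontal axis) and mean number of distal peaks within 50 kb (vertical axis, values above 25 drawn at 25) for genes open in 3 libraries, with all such genes in grey on a log scale. The 5 open regulators lie to the left of the median percentile (87.0), with Kit, Hlf and Meis1 below and Hhex and Flt3 above the median of 2.33 distal peaks, and many myeloid factors lie to the upper right.

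Factors of the myeloid and other lineages were set beside the regulators too, and here again 50.5% of all protein-coding genes were open. The 5 open regulators had a median of 2 distal peaks and a median promoter percentile of 64.4, beside 7.33 and 93.2 for the 19 myeloid factors, all of them open. Fos and Cebpb had 21 ± 1.00 and 19.7 ± 2.52 distal peaks, whereas Zeb2 (1.33 ± 0.577) and Mef2c (1.67 ± 0.577) were as sparse as Hlf. Of 16 lymphoid factors 7 were open, from Id3 and Bach2 with 14.7 ± 2.89 and 7.33 ± 0.577 distal peaks down to Tcf3 with 2.67 ± 0.577 and Ikzf3 with 0 in every library. Of 8 erythroid and megakaryocyte genes 3 were open, Zfpm1, Nfe2 and Ldb1, with 7.67 ± 0.577, 5.33 ± 2.08 and 3 ± 1.00, and Gata1, Klf1, Epor and Sox6 had no promoter peak in any library. The counts of 7 in 16 and 3 in 8 open genes lie near the share of all genes.

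For each open regulator the gene of these lists with the most similar profile was found by Euclidean distance over 6 values, the promoter percentile divided by 10 and the distal count in each library, among 47 open genes. Meis1 was nearest to Msi2, an RNA-binding protein gene, at a distance of 0.415, both with 2 distal peaks in every library. Hhex was nearest to Ldb1 (1.06), Hlf to Mef2c (2.38), Flt3 to Foxo1 (2.64) and Kit to Mycn (4.54). Kit thus had the least similar neighbour of the 5.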

How the data were processed

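DNase-seq of monocytes gave, for each of 3 libraries, 2 peak lists, footprints and an FDR track, made by the authors from that library's filtered alignment to mm10, per the deposited description files; the aligner, the peak caller and how footprints were called were not given in the sources used here. The deposited peak height is a signal of unstated scale, and the longer list was used. The deposited FDR is of the p-value kind and is listed under 0.05; the footprint file holds 1 constant value, and only positions were used. The longer list had 54046, 42657 and 48980 peaks, and read depth is unknown. Reference sequence and genes were GRCm38.p6 and the basic GENCODE M21 annotation (21851 genes, 41438 coding TSSs). Overlaps of at least 1 bp were counted, and peaks merged over libraries, with Python 3.11.15, numpy 2.4.6, pandas 2.3.3 and pysam 0.24.0; the counting was tested on simulated data. Percentiles rank peaks within a library. No contrast exists, so no test was run. The members and gene lists were chosen with earlier results of these data known. Named were all 9 members and, per list, the 2 open genes with the most and the 2 with the fewest distal peaks (ties alphabetical), genes without any promoter peak where 5 or fewer, and the nearest profile of each open member; marker genes and Runx1 are named as list members. The value of 1 gene that this rule names is not reported here.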

Additional observations from a re-analysis of the deposited data

How the results depend on the processing

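Kit, Meis1 and Hlf were the regulators open with few distal peaks in the reported setting and with promoter windows of 500 bp, peak midpoints, distal windows of 25 or 100 kb or around any coding TSS, the comprehensive annotation, and each replicate left out. The shorter list and the taller 50% of peaks each dropped Kit (4 open, 2 with few), a window of 2000 bp added Mecom (6 open, 4 with few), and a window around the gene record kept 3 but put Hhex in place of Meis1. When each distal peak was counted only for its nearest gene, a choice made after seeing the data as was the comprehensive annotation, 1 remained, Kit, since the median of open genes fell to 1. The mean number of distal peaks per regulator was 1.52 with the shorter list and 1.11 with the taller 50%, beside 1.59 and 1.19 for all genes. It thus lay below that of all genes with these 2 stricter peak sets. It lay above that of all genes within 25 kb (1.56 beside 1.21), within 100 kb (5.04 beside 4.70) and around the gene record (4.04 beside 3.21). With each distal peak counted only for its nearest gene, the mean was 2.67 per regulator, beside 1.02 for all genes. The regulators have almost no coding neighbours within 50 kb, and the part of gene spacing in this gap was not tested. Leaving out 1 replicate gave 5 to 6 open regulators (Cd34 without replicate 2, Myb without replicate 4), 3 with few distal peaks and a mean of 2.56 to 3. No paired analysis was possible because the libraries form 1 group. Heights have no stated scale and depth is unknown, so a missing low peak, as at Cd34, Myb and Erg, is not shown to be closed chromatin.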
